A study of Homo sapiens with 4 samples.

Results

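Dense clusters of TEAD4 peaks in MKN28 cells are stretches of the genome in which called binding sites follow each other at short distances. Peaks of the MKN28 list were joined along each chromosome wherever the gap to the next peak was at most 12.5 kb, and joined groups of 4 or more peaks were kept. This gave 1344 dense groups holding 6910 of the 39477 MKN28 peaks (17.5%). The groups were chosen by the positions of the MKN28 peaks, so their number, spacing, scores and widths are descriptions. The joining used no SNU216 peak, although the rule was proposed with earlier results on both lists known.

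The data are TEAD4 ChIP-seq from 2 gastric cancer lines of human origin, MKN28 and SNU216, with 1 TEAD4 library and 1 input library without antibody per line. No genetic change or treatment is given for either line. The same TEAD4 antibody (Abnova) was used in both, and stocks of MKN28 are known to derive from the gastric line MKN74. Each list holds positions on hg19 and a score given by the authors' peak caller, without read counts, so depth is unknown, and with no replicates nothing that sets the lines apart could be checked against replicate spread. Intervals are exact 95% intervals and cover counting error only; neighbouring peaks are not independent, so they are too narrow as a measure of scatter along the genome. A site missing from a list was not called there, which leaves weaker binding possible.

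TEAD4 belongs to the TEAD family of DNA-binding proteins, the factors through which YAP and TAZ, the co-activators held in check by the Hippo kinases, reach DNA. TEAD sites lie mostly in enhancers away from gene starts, often beside sites of AP-1, and drive genes of growth, adhesion and the cytoskeleton in epithelial cancers. Runs of closely spaced enhancer elements are often joined at the same distance to define what are called super-enhancers, but that definition ranks a chromatin or co-factor signal that was not measured here. Genes were not assigned to peaks, since no gene map of hg19 was used here. Genes mentioned with a band are textbook background on that band.

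The dense groups were short and mostly small. Their spans had a median length of 19.9975 kb (quartiles 13.9 and 26.7 kb), from 2.74 to 88.3 kb, and added up to 28.97 Mb, or 0.936% of hg19. Member peaks covered 15.02% of that length. Of the 1344 groups, 672 held 4 peaks, 315 held 5, another 315 held 6 to 9, and 42 held 10 or more, with a highest count of 20. The gap between neighbouring members had a median of 3626 bp (quartiles 1230 and 7163 bp), and 21.9% of the 5566 gaps were shorter than 1000 bp. Over all neighbouring MKN28 peaks the median gap was 25.9 kb.

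Neither limit of the rule fell on a break in the data. In the last 500 bp inside the distance limit there were 301 gaps, and in the first 500 bp outside it 312. Just inside the size limit lay the 672 groups of 4, with a median score of 114 and a median width of 561 bp. Just outside lay 1599 groups of 3 peaks, with 111 and 550 bp.

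Member peaks scored higher and were wider than the rest of the MKN28 list. The median score was 119 (quartiles 71.5 and 261) for members and 95.9 (64.2 and 187) for the other 32567 MKN28 peaks. The median width was 580 bp for members and 515 bp for the others. Of the members, 7.15% were 1 kb or wider, against 3.39% of the others. Scores of 1000 or more belonged to 224 members (3.24%) and to 573 other peaks (1.76%), against 2.02% of all MKN28 peaks. These values come from the list that chose the groups and are not tested.

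Scores varied within the groups. The strongest member had a median score of 442 (quartiles 246 and 758), and the median of its ratio to the group's own median score was 2.94 (1.89 and 4.93). Its ratio to the next strongest member had a median of 1.79 (1.30 and 2.83). Both ratios are 1 or more by construction. A member scoring 1000 or more was present in 195 groups (14.5%).

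The group with the most peaks was in 1q42.13, at chr1:228727933-228782308, with 20 MKN28 peaks over 54.4 kb. This band carries the main array of 5S ribosomal RNA genes, tandem copies transcribed by RNA polymerase III; the RefSeq table of GRCh38.p14 lists 17 of them, RNA5S1 to RNA5S17, in a run on chromosome 1 with 2 other genes starting among them. SNU216 had 17 peaks in the span, each overlapping an MKN28 peak, and 17 of the 20 MKN28 peaks overlapped an SNU216 peak. The 3 MKN28 peaks without a counterpart lay together at one end, with scores of 52.8, 74.5 and 131.7.

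The shared peaks of 1q42.13 were evenly spaced in both lines. Neighbouring midpoints of the 17 shared MKN28 peaks lay 1910 to 2566 bp apart, with a median of 2248 bp, and 14 of 16 distances were within 10% of it. Those of the 17 SNU216 peaks lay 2116 to 2385 bp apart, with a median of 2228 bp, and 16 of 16 were within 10% of it. Among all 357 dense groups of 6 or more peaks, the median share of distances within 10% of the group's own median was 20%, and 17 groups reached 50% or more. Partner midpoints in 1q42.13 were 53.5 bp apart at the median, against 56.0 bp over all 1592 overlapping members.

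The scores along this run covered like ranges in the 2 lists, although a common scale of the caller's scores is not stated. The 17 shared MKN28 peaks scored 81.8 to 605 (median 306), and the 17 SNU216 peaks scored 106 to 459 (median 342). The lowest of the 17 was the same site in both lists, at chr1:228763493-228764353 with a score of 81.8 in MKN28 and at chr1:228763706-228764268 with 106 in SNU216. As printed in the lists, the number was higher in SNU216 at 9 of the 17 sites. Copies of a tandem repeat share most of their sequence, and how reads that match several copies were placed is not given in the sources used here. Without this group and the one in 1q23.3, a setting chosen after seeing the data, 1342 dense groups and 6880 members were left, of which 22.8% overlapped an SNU216 peak.

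**Figure D1:**
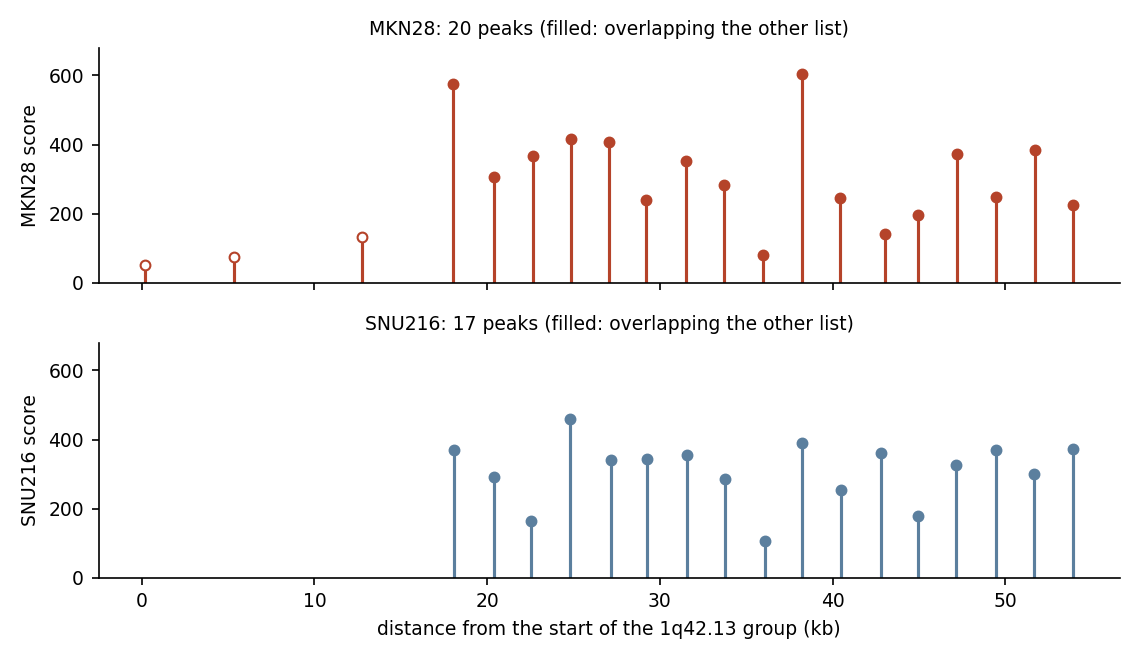
Score of each peak (vertical axis, the authors' peak-caller score) against the distance of its midpoint from the start of the 1q42.13 group (horizontal axis, kb), for MKN28 above and SNU216 below. Filled points overlap a peak of the other list: all 17 SNU216 peaks and 17 of the 20 MKN28 peaks do, at a spacing with medians of 2248 bp in MKN28 and 2228 bp in SNU216.

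The 12 groups with the most MKN28 peaks, ties going to the longer span, held 13 to 20 of them, and SNU216 had 0 to 17 peaks in the same spans. Of the 13 groups with 13 or more peaks, the shortest of those with 13, in 1p36.13, fell outside the 12 and is described with the groups richest in SNU216 peaks. After 1q42.13 came 10p12.31 (chr10:21567685-21653830), with 16 MKN28 peaks and 3 SNU216 peaks. Its strongest MKN28 peak scored 1424 and was shared, with 184 as the highest SNU216 score of the span. A group in 19q13.33 (chr19:50585626-50640967) also had 16 MKN28 peaks and 2 SNU216 peaks, scoring 50.97 at the median; its strongest MKN28 peak, 334, was not shared. The other group of 19q13.33 (chr19:48406854-48461216) had 15 MKN28 and 6 SNU216 peaks, and its members were wide, with a median of 1023 bp. In 22q13.2 (chr22:43341545-43410128) there were 15 MKN28 peaks and 1 SNU216 peak, which fell on the strongest member (score 863 in MKN28 and 89.1 in SNU216).

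The remaining large groups were spread over 7 bands on 6 chromosomes. In 17p13.3 (chr17:827919-862786), 3 of 14 members were shared, including the strongest, which scored 1284. In 7p12.3 (chr7:47573877-47644970), 4 of 13 were shared. The strongest member scored 1911 in MKN28 and its SNU216 partner 449, while the highest SNU216 score, 715, was at another site. In 12p13.2 (chr12:10317525-10367556), 1 of 13 was shared, and the strongest, 627, was not.

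In 11q13.1 (chr11:65236248-65285147), the band of the nuclear long non-coding RNA genes NEAT1 and MALAT1, 5 of 13 members were shared. The strongest scored 1415 in MKN28 and its SNU216 partner 70.4, the lowest SNU216 score of the span, where these scores reached 309 at another site. In 5q34 (chr5:167741584-167793217), 6 of 13 members were shared among 8 SNU216 peaks. The strongest member scored 1768 in MKN28 and its SNU216 partner 78.6, while the highest SNU216 score, 481, was at another site.

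**Figure D2:**
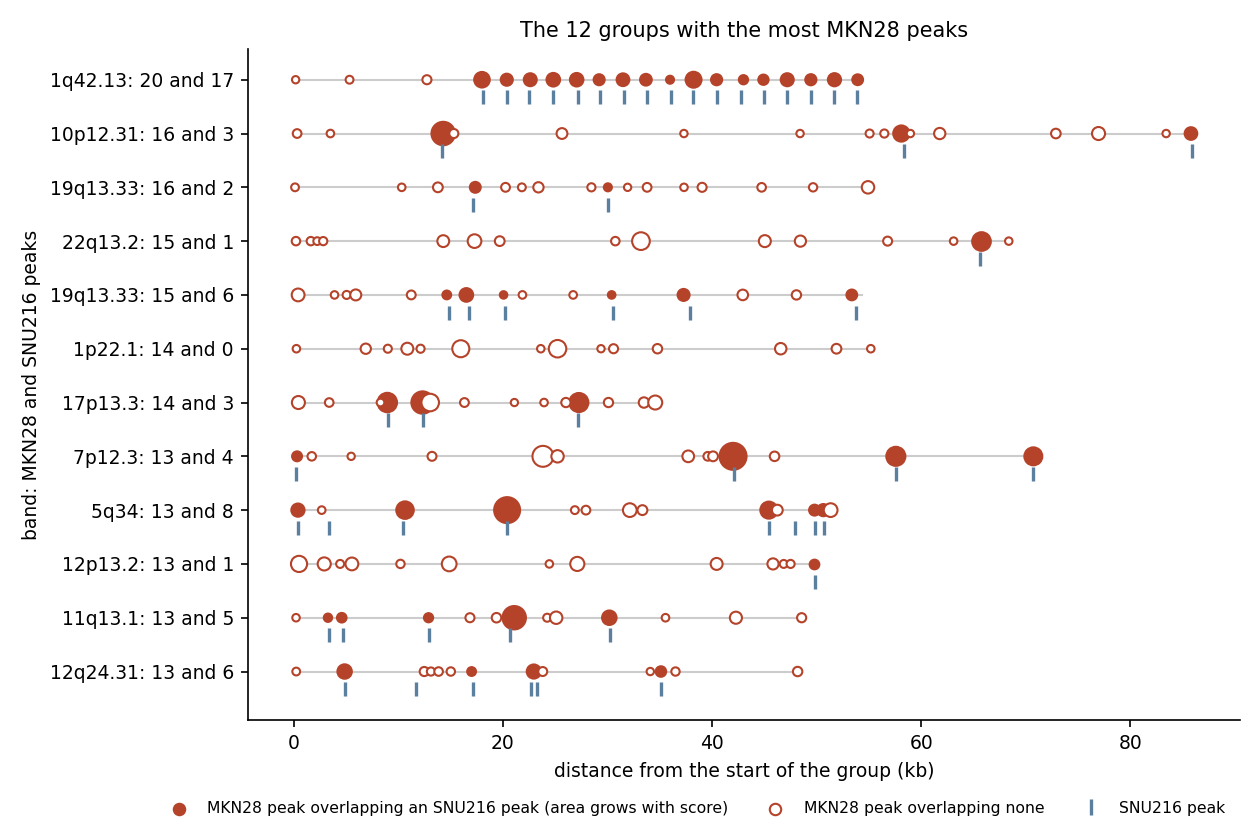
Peaks of the 12 groups with the most MKN28 peaks, each on a line of its own against the distance from the start of the group (kb). Circles are MKN28 peaks, filled where they overlap an SNU216 peak and larger where the score is higher, and ticks under each line are SNU216 peaks; 1q42.13 is evenly spaced and mostly filled, while 1p22.1 has 14 open circles and no tick.

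In 1p22.1 (chr1:94034510-94089977), 14 MKN28 peaks stood against 0 SNU216 peaks, the most of any group without a counterpart. Its strongest peak, at chr1:94059004-94060491, scored 750 and was 1488 bp wide. The megabase from 94 to 95 Mb of chromosome 1 held 5 dense groups with 42 members, of which 4 overlapped an SNU216 peak. Over all 6910 members the share was 23.04%, and over all MKN28 peaks 17.1%. The window takes in the 14 peaks just described, a group named for having no SNU216 peak. That choice lowers the count, and the difference from other windows was not tested. Of the 5 groups in the window, 3 had no SNU216 peak, among them one of 8 peaks (chr1:94556324-94597339) with a median score of 328. The other 2 groups of the window had 2 SNU216 peaks each. The gene BCAR3, an adaptor in signalling from cell adhesions, is known from 1p22.1.

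Of the 1344 dense groups, 527 (39.2%, 36.6 to 41.9) had no SNU216 peak in the span. Lacking one was more common in the list as a whole. Over MKN28 groups of any size, single peaks included, only 5504 of 25973 (21.2%) had one, though most of these spans are shorter. Among the 527, the 8 with the most MKN28 peaks held 8 to 14. At 8 peaks 15 groups tied, and the longest of these were taken. Over the 8, the highest scores lay between 192 in 1p36.21 and 1493 in 22q13.2. In 22q13.2 (chr22:43107945-43140100), 9 MKN28 peaks with a median score of 265 had no counterpart. Others of the 8 were in Xp11.21 (10 peaks over 18.2 kb), 6p22.3 (9 peaks, highest score 1054), 22q12.1 (9 peaks), 14q23.2 (8 peaks) and 9p13.3 to 9p13.2 (8 peaks, highest score 1261). Of the 42 groups with 10 or more peaks, only those of 1p22.1 and Xp11.21 lacked an SNU216 peak.

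SNU216 peaks were found in 817 of the 1344 dense group spans (60.8%, 58.1 to 63.4), against 4687 of the 24629 smaller groups and single peaks (19.03%, 18.5 to 19.5). Over MKN28 groups of any size the share was 21.2%. It rose at each step of group size, from 14.4% for single peaks over 28.9% and 42.7% for groups of 2 and 3 to 56.9% for 4 to 5 peaks, 68.3% for 6 to 9 and 95.2% (83.8 to 99.4) for 10 or more. A longer span with more peaks offers more places for an SNU216 peak to fall, so this share grows with group size by construction.

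Counted per peak, members were still shared more often than the rest of the list. Of the 6910 members, 1592 overlapped an SNU216 peak by at least 1 bp (23.04%, 22.05 to 24.05), against 5160 of the other 32567 (15.8%, 15.4 to 16.2). Over all MKN28 peaks the share was 17.1%. Per peak, the share was 14.4% (13.9 to 14.9) for single peaks, 16.9% (16.1 to 17.7) for groups of 2 and 19.2% (18.1 to 20.4) for groups of 3. It was 22.19% (20.95 to 23.5) for groups of 4 to 5, 22.7% (20.9 to 24.5) for 6 to 9 and 31.9% (27.9 to 36.2) for 10 or more. The interval of 6 to 9 peaks shares values with that of 4 to 5, and that of 10 or more lies above all others. That last step rested in part on 1q42.13 and 1q23.3, where 26 of 30 members were shared. Without them the share for 10 or more was 28.4% (24.4 to 32.7), whose interval shares values with that of 6 to 9.

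**Figure D3:**
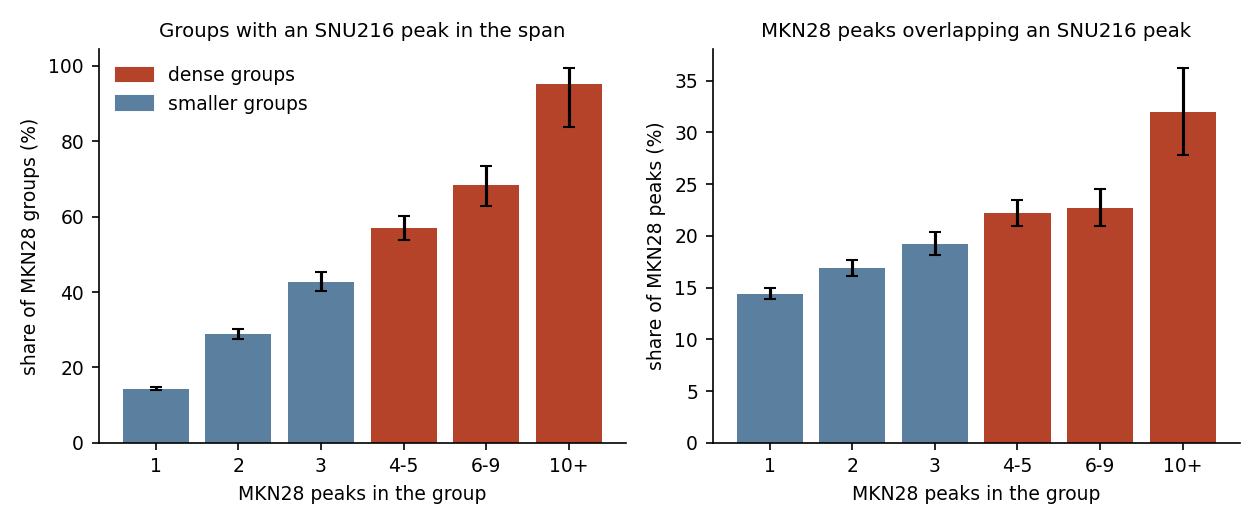
Share of MKN28 groups with an SNU216 peak in the span (left, %) and share of MKN28 peaks that overlap one in SNU216 (right, %) by the number of MKN28 peaks in the group. Bars carry exact 95% intervals; the right panel runs from 14.4% for single peaks to 31.9% for groups of 10 or more.

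The difference was smaller between peaks of like score. The MKN28 list was split by score into 10 equally large groups, and members made up 13.1% of the lowest and 25.4% of the highest. In the highest group (scores from 422), 56.8% (53.6 to 59.9) of 1004 members overlapped an SNU216 peak, against 47.96% (46.1 to 49.8) of 2944 other peaks. In the next, 35.95% (32.7 to 39.3) of members did, against 28.8% (27.2 to 30.4) of other peaks. In the lowest group (scores up to 54.9), the shares were 5.78% (3.93 to 8.15) of 519 members and 4.26% (3.61 to 4.99) of 3429 other peaks. Members had the higher share in 10 of 10 score groups, and the intervals lay apart in 3 of them. With the others weighted to the score groups of the members, their share was 19.03%, which left 4.01 of the 7.19 percentage points between members and others.

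Members of like score were also slightly wider than other peaks, by factors of 1.05 to 1.097 over the 10 score groups, and the part of width in the overlap was not tested. Among peaks scoring 1000 or more, 179 of 224 members (79.9%, 74.1 to 84.95) overlapped an SNU216 peak, against 363 of 573 other peaks (63.4%, 59.3 to 67.3).

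**Figure D4:**
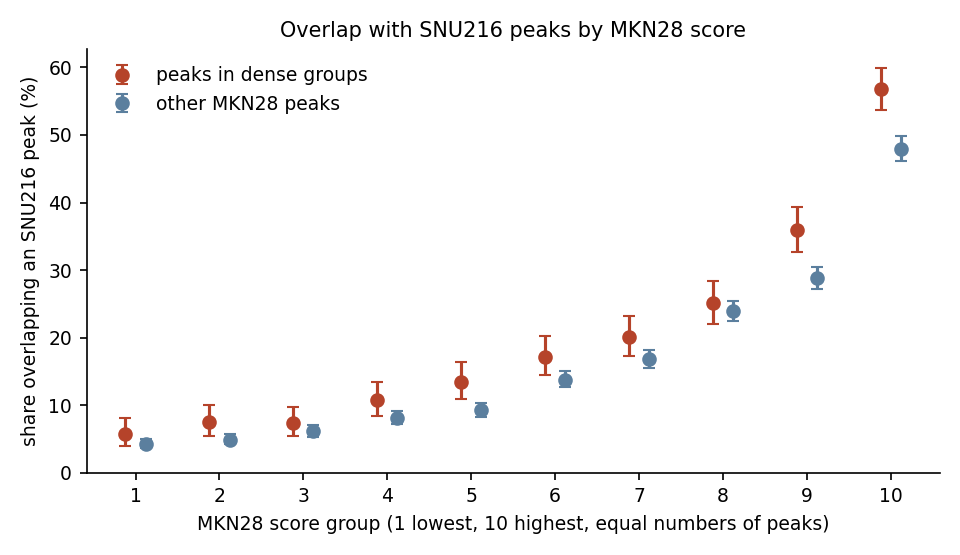
Share of MKN28 peaks that overlap one in SNU216 (vertical axis, %) in 10 MKN28 score groups of equal size (horizontal axis, 1 lowest), for peaks in dense groups and for other MKN28 peaks, with exact 95% intervals. Both rise with score, from 5.78% to 56.8% in dense groups and from 4.26% to 47.96% in other peaks.

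Sharing was uneven within the groups, and the strongest member was shared more often than the rest. The strongest members had a median score of 442, and overlap rose with score in the whole MKN28 list. Among other MKN28 peaks, 28.8% were shared at scores of 244 to 421.5 and 47.96% at higher scores. Whether strongest members differ from other peaks of like score was not tested. The strongest member overlapped an SNU216 peak in 562 of 1344 groups (41.8%, 39.2 to 44.5), against 18.5% (17.5 to 19.6) of all other members and 9.38% (7.87 to 11.1) of the weakest. In the 783 groups with some but not all members shared, the strongest was among the shared ones in 543 (69.3%). Such groups hold a shared member by definition, and the share over all their members was not computed for comparison. No member was shared in 542 groups (40.3%), 1 member in 371 (27.6%), 2 or 3 in 349 (25.97%) and 4 or more in 82 (6.10%). At least 50% of the members were shared in 252 groups (18.8%).

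All members were shared in 19 groups, which held 4 to 6 peaks each. The largest of them was in 6p22.2 (chr6:26554157-26577554), with 6 MKN28 and 6 SNU216 peaks; the band is known for histone and transfer RNA genes. Groups of 5 fully shared peaks were in 1p21.3 (chr1:95081731-95088883, highest MKN28 score 622), 3q13.2 and 4p15.32. Among the fully shared groups of 4, the highest MKN28 scores were 3100 in 3q22.2, 2465 in 9q31.3 and 2374 in 2p21.

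The band 3q22.2 held a chain of 3 dense groups that the distance limit kept apart. Their spans were chr3:134020184-134032743 (4 peaks), chr3:134045465-134054444 (4 peaks) and chr3:134069732-134101160 (9 peaks), with gaps of 12721 and 15287 bp between them. In all, 3, 4 and 7 of their members were shared, and SNU216 had 4, 8 and 9 peaks in the spans. AMOTL2, a junction protein that binds YAP and is known as a YAP and TEAD target, is a gene of this band. The strongest peaks of the chain were at chr3:134045465-134047455, scoring 3100 in MKN28 and 3117 in SNU216, and at chr3:134092925-134094177, scoring 1682 in MKN28 and 1552 in SNU216. The first MKN28 peak was 1991 bp wide and touched 4 separate SNU216 peaks.

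The 8 groups with the most SNU216 peaks held 8 to 17 of them. Besides 1q42.13, 5q34 and 2 groups of 3q22.2, they were in 1q23.3, 1p36.13, 5q35.3 and 16p13.3. In 1p36.13 (chr1:16470124-16515103), the band of the receptor tyrosine kinase gene EPHA2, 9 of 13 members were shared, and both lists had their strongest peak at the same site, with 959 in MKN28 and 510 in SNU216. In 1q23.3 (chr1:161397670-161440356), 9 of 10 members were shared among 12 SNU216 peaks. These members were very wide, with a median of 1412 bp and a widest of 3904 bp, and the distances between the 9 shared midpoints ran from 2777 to 3986 bp. In 5q35.3 (chr5:180596350-180649727), 8 of 12 members were shared, and in 16p13.3 (chr16:3189672-3241713), 8 of 12 were. The bands 1q23.3, 5q35.3 and 16p13.3 are known to carry clusters of transfer RNA genes, which RNA polymerase III transcribes.

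The printed scores of shared sites can be set side by side, but since no common scale is stated, a higher number in 1 list does not show stronger binding in that line. The SNU216 partner had the higher score for 382 of the 1592 shared members (23.995%, 21.9 to 26.2) and for 1326 of the 5160 shared other peaks (25.7%, 24.5 to 26.9), intervals that share values. The partner was higher for 9 of 9 shared members in 1q23.3, with medians of 131 in MKN28 and 246 in SNU216. It was higher for 6 of 8 in 5q35.3, with medians of 129 in MKN28 and 211 in SNU216. In 16p13.3 it was higher for 5 of 8, with 74.0 in MKN28 and 96.9 in SNU216. The other groups with the most SNU216 peaks had fewer such sites. There the partner was higher for 9 of 17 shared members in 1q42.13 and 1 of 9 in 1p36.13. It was higher for 1 of 6 in 5q34, and for 2 of 7 and 1 of 4 in groups of 3q22.2.

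Of the 82 groups with 4 or more shared members, 17 had a higher SNU216 score at more than 50% of them, and 18 had a higher SNU216 score at none. Others of the 17, chosen after their values were seen, were in 11q12.1 (4 of 7), 6p22.2 (4 of 6), 4p15.32 (4 of 5), 1q41 (4 of 4) and 20q13.33 (4 of 4). The last (chr20:60924910-60953720) stood out by size. Its shared members scored 128, 52.7, 1163 and 78.0 in MKN28, beside SNU216 partners of 1559, 2686, 2686 and 409. The members scoring 52.7 and 1163 lay under 1 SNU216 peak that was 1583 bp wide. In 1q41 (chr1:218649778-218670480), the 4 members scored 51.0, 73.2, 53.6 and 361 in MKN28, against 71.7, 128, 266 and 647 in SNU216.

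Within the dense spans, as in those of groups of 2 and 3, SNU216 peaks fell mostly on the MKN28 peaks. The spans held 1757 of the 11540 SNU216 peaks (15.2%, 14.6 to 15.9) on 0.936% of hg19, or 60.7 per Mb (57.9 to 63.6). Per Mb of span this was near groups of 2, with 58.9 (56.1 to 61.7), and of 3, with 54.6 (51.3 to 58.2). It was below the 94.6 of all smaller groups and single peaks together. Single peaks, whose span is the peak itself, had 274 per Mb. Of the 1757, 1618 overlapped a member and 139 lay between members. In groups of 3, 51 of 985 SNU216 peaks of the spans lay between MKN28 peaks, and in groups of 2, 79 of 1696. Over all SNU216 peaks, 59.3% overlapped an MKN28 peak. The SNU216 peaks on members had a median score of 128 (quartiles 77.6 and 248), against 111 (70.6 and 205) for SNU216 peaks on other MKN28 peaks. Those between members scored 71.5 (58.1 and 104), against 64.5 (55.8 and 90.2) for SNU216 peaks that touched no MKN28 peak elsewhere.

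The stretches between members also held more SNU216 peaks touching no MKN28 peak than the stretches inside smaller groups or the genome outside all groups. There were 5.65 SNU216 peaks per Mb (4.75 to 6.67) in the 24.6 Mb between members, counting those that touched no MKN28 peak. The density was 3.35 per Mb (2.497 to 4.41) between the peaks of groups of 3 and 3.37 (2.67 to 4.20) in groups of 2. Outside all MKN28 groups it was 1.47 per Mb (1.43 to 1.52) of hg19, unsequenced stretches included. The first 5 kb beside dense groups, which held no MKN28 peak, had 4.61 SNU216 peaks per Mb (3.54 to 5.91). That interval shares values with the one between members, so a density particular to the inside of the groups was not shown.

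Beside the groups, the density of SNU216 peaks depended on the distance. Here every SNU216 peak was counted, also those on an MKN28 peak, unlike in the densities between members. In the first 5 kb outside dense groups, SNU216 had 4.61 peaks per Mb (3.54 to 5.91). From 5 to 10 kb it had 2.83 (2.001 to 3.88), against 3.002 (2.21 to 3.98) beside groups of 3 and 3.29 (2.79 to 3.85) beside groups of 2. From 20 to 50 kb outside the spans of dense groups, SNU216 had 11.3 peaks per Mb (10.6 to 12.1), against 8.81 (8.22 to 9.42) beside groups of 3 and 5.75 (5.61 to 5.89) beside single peaks. The SNU216 list averaged 3.73 peaks per Mb of hg19. From 100 to 200 kb away, the densities were 7.66 (7.34 to 8.003) beside dense groups, 6.61 (6.34 to 6.90) beside groups of 3 and 5.34 (5.27 to 5.42) beside single peaks. MKN28 peaks followed the same order at 20 to 50 kb, with 39.9 per Mb beside dense groups, 32.8 beside groups of 3 and 20.1 beside single peaks. A stretch between 2 groups counts in the flanks of both.

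**Figure D5:**
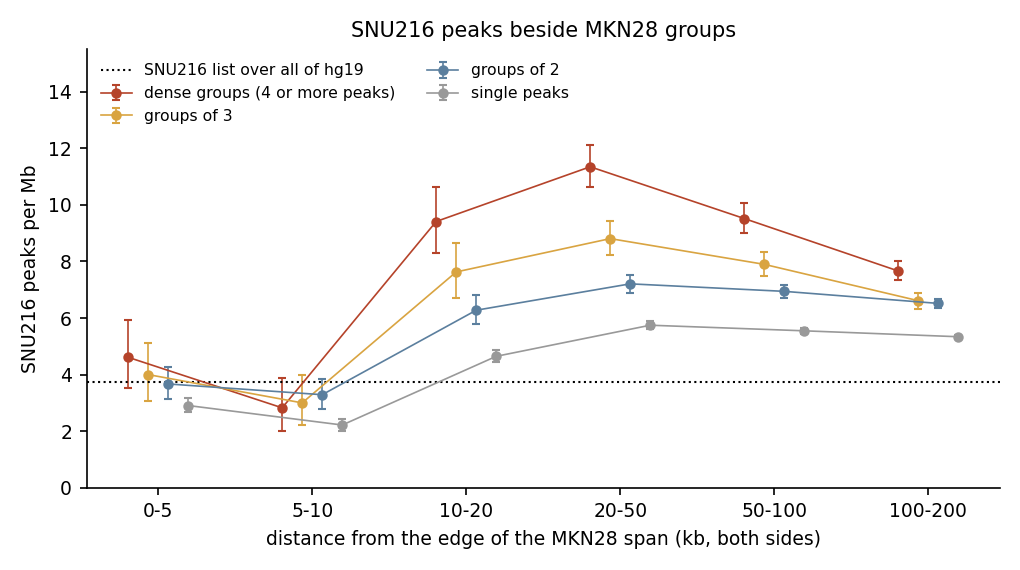
SNU216 peaks per Mb (vertical axis) by distance from the edge of an MKN28 group (horizontal axis, kb, both sides together), for dense groups, groups of 3, groups of 2 and single peaks, with exact Poisson 95% intervals. The dotted line is the SNU216 list over all of hg19, 3.73 per Mb; the first 2 classes of distance hold no MKN28 peak, since a nearer peak would have been joined, and at 20 to 50 kb dense groups reach 11.3 per Mb.

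The same joining rule applied to the SNU216 list gave 171 groups with 830 of the 11540 SNU216 peaks (7.19%). Of these 171, 111 (64.9%, 57.3 to 72.04) shared bases with an MKN28 dense group, 51 held MKN28 peaks but no dense group, and 9 held no MKN28 peak. In the other direction, 110 of the 1344 MKN28 dense groups (8.18%, 6.77 to 9.78) shared bases with an SNU216 group. The share was 5.98% for MKN28 groups of 4 to 5 peaks, 10.8% for 6 to 9 and 40.5% (25.6 to 56.7) for 10 or more. Median spans of these classes were 17.4, 29.3 and 53.6 kb. A longer span offers more places to meet an SNU216 group, so this share grows with group size by construction. The share for smaller MKN28 groups was not computed for comparison. The SNU216 list, with 11540 peaks against 39477 in MKN28, can form fewer groups.

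Dense groups lay on every chromosome except Y. Members made up 27.2% of the MKN28 peaks of chromosome 22, 26.8% on 20, 26.5% on 19 and 24.9% on 17, against 8.26% on X and 4.42% on 18. These shares went broadly with the density of the list, though not in the same order. It was 25.96 peaks per Mb on chromosome 19, 21.7 on 17, 20.4 on 20 and 18.1 on 22, against 5.21 on 18 and 4.99 on X. Members had a higher overlap with SNU216 than other peaks on 22 of the 23 chromosomes, and the intervals lay apart on 11 of them. On chromosome 20 the shares were 31.1% (26.2 to 36.3) of members and 17.2% (14.9 to 19.8) of others. On chromosome 22, which is rich in dense groups, they were 13.4% (9.49 to 18.3) of members and 11.7% (9.36 to 14.4) of others. The exception was chromosome 18, where 2 of 18 members (11.1%, 1.38 to 34.7) overlapped, against 20.05% of other peaks.

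Members of dense groups lay mostly in the light bands of the Giemsa stain, which are known to be rich in genes and in G and C. Their positions come from the list that chose the groups, so the contrast with other MKN28 peaks is a description. Unstained bands held 61.3% (60.2 to 62.5) of members and 55.3% (54.8 to 55.9) of other MKN28 peaks, on 42.2% of hg19. The 2 darkest classes held 10.3% (9.61 to 11.1) of members and 19.3% (18.9 to 19.8) of others, on 29.2% of hg19. In the darkest bands 25.4% (22.23 to 28.7) of members and 16.8% (15.9 to 17.8) of others were shared with SNU216, and in unstained bands 22.7% (21.4 to 23.96) of members and 15.3% (14.7 to 15.8) of others. Of the members, 3.26% lay within 1 Mb of a centromere band or chromosome end, against 3.75% of other peaks.

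Dense groups were also found near each other. They occupied 811 windows of 1 Mb, of which 480 held 1 group and 47 held 4 or more. The next dense group on the same chromosome lay within 100 kb for 233 of them. The windows with 6 groups were in 20q13.13 to 20q13.2 (38 members, 18 shared), 11q13.3 (33 members, 14 shared), 17q21.2 (32 and 13), 17q25.1 (31 and 11), 22q12.2 (30 and 8) and 15q22.31 to 15q23 (27 and 10). The band 11q13.3 is that of the cyclin D1 gene CCND1, and 17q21.2 carries the type I keratin genes.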

How the data were processed

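TEAD4 ChIP and input libraries of MKN28 and SNU216 were deposited as 1 peak list per line, with the ChIP of a line set against its own input. Per the submitters' processing notes, CASAVA 1.8, Bowtie2 2.0.0, MACS and build hg19 were used; the MACS version, its settings, and the handling of duplicates and of reads that match several places were not stated in the sources used here. Column 5 of the lists deposited by the authors is the peak caller's score, whose scale the files do not state, so counts of higher scores between the lists describe the printed numbers only. Depth is unknown. The inputs were not analysed here.

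Peaks were joined as the report states, on coordinates as the lists give them, and only the printed starts were converted to 1-based. Overlap meant at least 1 bp. Shares carry Clopper-Pearson intervals and densities exact Poisson intervals at 95%. No p-values were computed, since each line has 1 library. Regions were named by rule: the 12 groups with the most MKN28 peaks, the 8 with the most SNU216 peaks and the 8 with the most MKN28 peaks among those without an SNU216 peak, with the strongest peak of each; 1 of the 12 is not reported here. The members, the rule and the alternatives were chosen with earlier results of these data known. Bands and chromosome lengths came from circlize 0.4.16. The RefSeq table of GRCh38.p14 served for gene names and neighbours only; planned steps on genes and motifs need an hg19 reference and were not run. The tools were scipy 1.17.1, pandas 2.3.3, numpy 2.4.6 and Python 3.11.15, and the joining and overlap steps were checked on simulated lists with planted groups.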

Additional observations from a re-analysis of the deposited data

How the results depend on the processing

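With a joining distance of 5000 bp there were 448 dense groups and 2086 members, 126 SNU216 peaks per Mb, and overlap shares of 25.4% of members and 16.6% of others, with 4.86% of SNU216 peaks in the spans; with 25000 bp the values were 2386, 14312, 31.6 per Mb, 20.7%, 15.1% and 29.9%. With at least 3 peaks per group there were 2943 groups and 11707 members, 50.97% of groups had an SNU216 peak, overlap was 21.5% of members and 15.3% of others, and 23.8% of SNU216 peaks lay in the spans; with at least 6 the values were 357, 2647, 71.4%, 24.4%, 16.6% and 6.11%. With scores from 100 up in either list, 356 groups, 1699 members, 24.2% of members and 9.10% of SNU216 peaks remained in the same counts. With an MKN28 list of equal length there were 106 groups and 483 members, 78.3% of groups with an SNU216 peak, 109 per Mb, 41.6% of members and 34.9% of others overlapping, and 2.11% of SNU216 peaks in the spans. With 50% of both peaks overlapping, 18.4% of members and 13.2% of others did. In the 10 score groups, from low to high, the share of members was 5.78%, 7.5%, 7.36%, 10.7%, 13.5%, 17.2%, 20.1%, 25.1%, 35.95% and 56.8%.

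Changed numbers of groups and members, and the lower shares under the stricter overlap, follow from the construction of those settings; the cause of the other moves was not tested. Members exceeded others in all 11 settings that gave both shares, by 5.25 to 8.77 percentage points. Without the 5 largest groups, with midpoints in the span, and under 3 settings added after seeing the data, every value stayed within its interval, or within 1.5 times for counts. Those 3 left out the wide-peak stretches of 22q11.21 and 8q24, groups near centromeres or ends, and the runs of 1q42.13 and 1q23.3. No replicate could be left out. No paired analysis was possible because each line has 1 library. Because depth is unknown, a peak called in 1 list may lie just under the threshold of the other.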

Other observations

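Chosen after its values were seen, a dense group at the end of the long arm of chromosome 4, in 4q35.2, had 3 of 4 distances of like size in MKN28. Its 5 MKN28 peaks scored 64.1 to 116, and their midpoints lay 3276, 3372, 6508 and 3431 bp apart. The SNU216 list had a group of 11 peaks there (chr4:190992309-191034257) with scores of 51.6 to 106, of which 5 overlapped an MKN28 peak. Its first 6 midpoints lay 3449, 2399, 781, 2476 and 4312 bp apart, so the spacing was not even in SNU216. The band is known for the D4Z4 macrosatellite, a tandem repeat that holds copies of the gene DUX4.

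Some of the largest SNU216 groups took in MKN28 peaks that did not form 1 dense group. In 6p22.2 (chr6:26285702-26331954), a band of histone and transfer RNA genes, SNU216 had 13 peaks in 1 group, where the 6 MKN28 peaks belonged to 3 joined groups, with 4, 2 and 1 peaks in all. The largest SNU216 group that touched no MKN28 dense group was in 1p34.2 (chr1:41951895-41981379), with 8 SNU216 peaks and 4 MKN28 peaks. A group of 6 SNU216 peaks in 4p11, beside the centromere, held no MKN28 peak.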
